A study of Mus musculus with 12 samples.

Results

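The protein tyrosine phosphatase genes on the array were taken as all probes whose gene symbol is *Ptpn* with a number, *Ptpr* with letters, or *Ptp4a* with a number. This gave 101 probes in 41 genes, of 45281 probes on the array with 19057 gene symbols. A probe was called detected if its detection p, the chance of so high a signal among the array's negative control beads, was under 0.01 on at least 3 of 12 arrays. By that rule 14 member probes in 11 genes were detected, of 5498 detected probes in all. The symbol rule also takes in *Ptprcap*, which encodes a protein that associates with CD45 and is itself not a phosphatase, and its values are given apart.

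Whole blood came from 3 *Pik3cg-/-* mice and 3 wild type (WT) C57BL/6J Jax mice, all females of 13 to 16 weeks on the same diet. The *Pik3cg-/-* mice have no catalytic subunit of phosphoinositide 3-kinase γ (p110γ) in any cell (targeted allele tm1Pngr); the line was first made in another strain, was backcrossed to C57BL/6J Jax and then bred within a closed colony, and the WT mice are not described as its littermates. The RNA from every mouse was labelled in duplicate on 2 technical arrays, which were averaged, so that n = 3 mice per genotype. Mice carry the letters A, B or C within a genotype, which pair no mice. The arrays do not check the genotype, since 1 of the *Pik3cg* probes reached detection on only 2 of 6 arrays of either genotype and the other on none. The arrays of WT mice detected 4648 to 4995 probes and those of *Pik3cg-/-* mice 3558 to 5511, while the number of detected phosphatase probes was 12 to 15 on every array. The arrays of *Pik3cg-/-* mouse C detected the fewest probes, 3558 and 3696, and *Pik3cg-/-* mice C and A had the lowest array quality weights in limma (0.35 and 0.44, against 1.2 or more in the other 4 mice). Marker genes of the blood cell types were detected on all 12 arrays, among them *Hba-a1* and *Alas2* of red cells, *Pf4* of platelets, *S100a8* of neutrophils and *Cd79b* of B cells. Because whole blood is a mixture, fewer cells of a type and less RNA per cell cannot be told apart.

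Protein tyrosine phosphatases remove the phosphate that tyrosine kinases place on proteins and so set how long a receptor's signal lasts. In blood cells, CD45 (*Ptprc*) keeps Src family kinases ready to act, while SHP-1 (*Ptpn6*) and SHP-2 (*Ptpn11*) bind phosphorylated tyrosine motifs of receptors through their SH2 domains. SHP-1 mostly dampens signals of immune receptors. SHP-2 is needed for full signalling from many growth factor and cytokine receptors to the Ras pathway. The PRL phosphatases (*Ptp4a1*, *Ptp4a2* and *Ptp4a3*) are small enzymes that carry a lipid anchor and bind magnesium transporters of the CNNM family.

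The detected genes were spread unevenly over the family. Of the nonreceptor phosphatases, 6 of 17 genes were detected (*Ptpn6*, *Ptpn11*, *Ptpn12*, *Ptpn14*, *Ptpn18* and *Ptpn22*), with 7 of 37 probes. Of the receptor phosphatases, which span the membrane, only *Ptprc* and *Ptpre* were detected among 20 genes, with 3 of 56 probes. Of the PRL phosphatases, *Ptp4a2* and *Ptp4a3* were detected and *Ptp4a1* was not, with 3 of 7 probes. Of the other member probes, 84 were not detected on any of the 12 arrays and 3 were detected on 1 or 2. Those 3 were a probe of *Ptpn5* with 1 WT and 1 *Pik3cg-/-* array, a probe of *Ptprm* with 1 WT array, and a probe of *Ptpro* with 2 WT arrays.

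A missing probe did not always mean a missing gene. In 8 of the 11 detected genes at least 1 other probe was undetected, and *Ptprc*, whose product CD45 lies on all white blood cells, was detected through only 1 of 4 probes. A result for a gene is therefore a result for the probe named. Requiring a detection p under 0.01 on 1, 6 or all 12 arrays in place of 3 left 17, 13 or 10 member probes in 14, 10 or 8 genes. Just inside the rule stood the *Ptprc* probe, with 3 arrays, and just outside it the *Ptpn5* and *Ptpro* probes, with 2 arrays each.

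The comparison of *Pik3cg-/-* with WT mice asked which phosphatase transcripts differ in blood when phosphoinositide 3-kinase γ is missing. At an adjusted p under 0.05 from limma, 0 of the 14 detected member probes were called in either direction, against 150 of all 5498 probes (2.73%). Their adjusted p ran from 0.0628 for *Ptp4a3* to 0.867. At an unadjusted p under 0.05, 4 of 14 member probes passed (28.6%), beside 21% of all probes. The analysis of variance of the methods, with Benjamini-Hochberg adjustment added here, called 0 members and only 4 of all 5498 probes. The 3 *Pik3cg-/-* mice lay all above or all below the 3 WT mice in 5 of 14 member probes (35.7%), beside 27.8% of all probes, so the share was near that of the array as a whole. Of these 5 probes, 3 had the *Pik3cg-/-* mice above (*Ptp4a3*, *Ptprcap*, *Ptpn14*) and 2 had them below (*Ptpn11*, *Ptp4a2*). For a single probe the exact permutation test of 3 against 3 mice, two-sided, cannot give a p below 0.1, the value it gave for all 5.

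**Figure D1:**
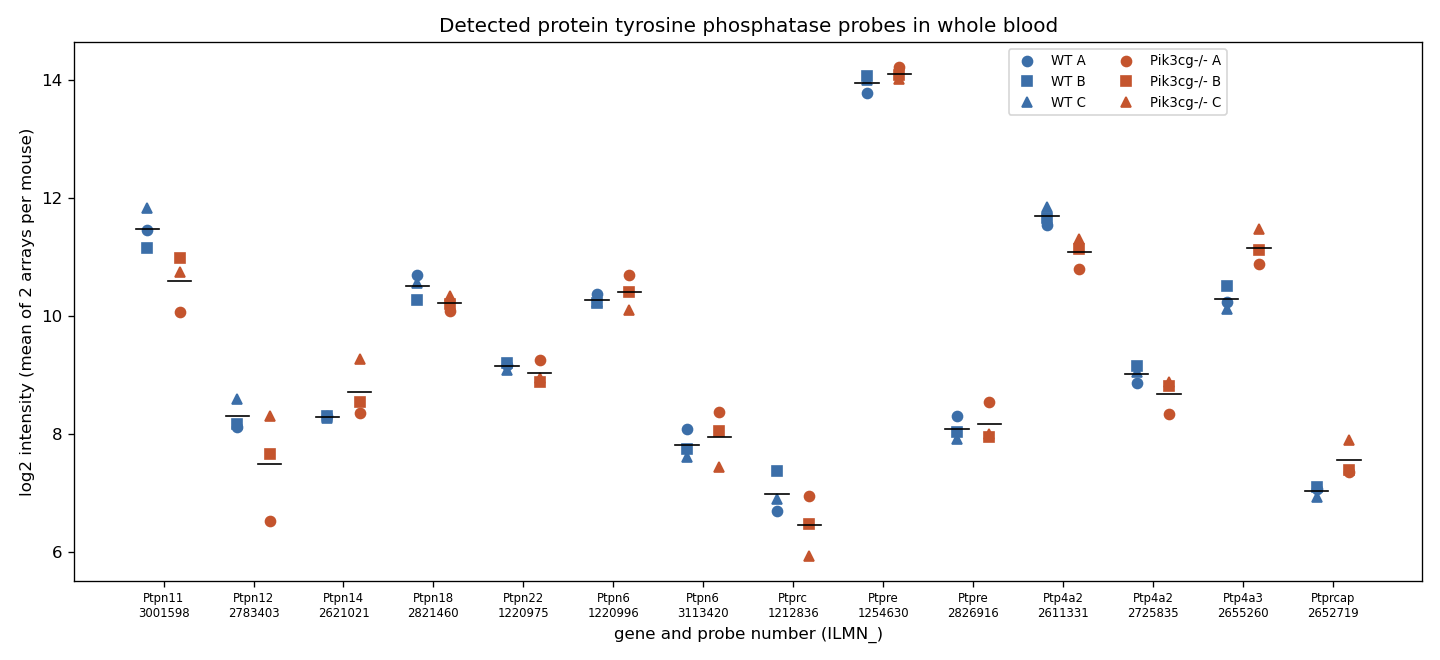
Normalized log2 intensity (vertical axis) of the 14 detected member probes (horizontal axis, gene and probe number) in whole blood. Each point is 1 mouse, the mean of its 2 arrays, blue for WT and orange for Pik3cg-/-, and black lines are group means (n = 3); intensities of different probes are not comparable. The groups stand fully apart in Ptpn11, Ptpn14, Ptp4a3, Ptprcap and the first Ptp4a2 probe, and Pik3cg-/- mouse A is the lowest point of Ptpn11 and Ptpn12.

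Among the nonreceptor phosphatases, *Ptpn11*, which encodes SHP-2 (chromosome 5), had normalized log2 intensities of 11.46, 11.15 and 11.82 in WT mice A, B and C and of 10.07, 10.98 and 10.74 in *Pik3cg-/-* mice A, B and C (probe ILMN_3001598). All *Pik3cg-/-* mice lay below all WT mice, with mouse A lowest and mouse B nearest to WT. The means were 11.48 ± 0.34 (SD, n = 3) and 10.60 ± 0.47 (SD, n = 3), a log2 fold change of −0.88 ± 0.27 (SE, the standard error, limma adjusted p = 0.124). The 2 arrays of *Pik3cg-/-* mouse B differed by 0.34, the largest such gap for this probe, and its first array read 11.15, where the arrays of WT mouse B read 11.14 and 11.15. The other 3 probes of *Ptpn11* were not detected.

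Its closest relative *Ptpn6*, which encodes SHP-1 (chromosome 6), gave 10.38, 10.22 and 10.24 in WT mice and 10.69, 10.41 and 10.10 in *Pik3cg-/-* mice (probe ILMN_1220996). The groups overlapped, with *Pik3cg-/-* mouse A the highest and mouse C the lowest of all 6. The log2 fold change was 0.12 ± 0.19 (SE, limma adjusted p = 0.752). The second probe, ILMN_3113420, ordered the *Pik3cg-/-* mice the same way, at 8.38, 8.05 and 7.43 against 8.08, 7.74 and 7.61 in WT mice, with a log2 fold change of 0.14 (adjusted p = 0.797 from limma). Both values for *Ptpn6* turned below 0 when *Pik3cg-/-* mouse A was left out (−0.02 and −0.07) or the arrays were scaled to the 75th percentile of all probes (−0.09 and −0.03).

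The log2 ratio of the *Ptpn11* to the *Ptpn6* probe within a mouse cancels any scaling common to both probes. It was 1.08, 0.93 and 1.59 in WT mice and −0.62, 0.57 and 0.65 in *Pik3cg-/-* mice, so the groups did not overlap. The change of the mean was −1.0 (exact permutation test, two-sided, p = 0.1, and 0.1 after adjustment over the 2 ratios computed, both chosen after the values had been seen). The size of a ratio of 2 probes has no meaning of its own, and its change bears only on whether both probes changed alike. Without *Pik3cg-/-* mouse A the change was −0.59 (exact permutation p = 0.2).

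The sequences before the starts of these genes are shown because *Ptpn11* and *Ptpn6* encode the SH2 domain phosphatases and had the fold changes described above. They are the 250 bases before the annotated start in RefSeq (GRCm38.p6), read 5′ to 3′ on the gene's own strand, for *Ptpn11* chr5:121191398-121191647 and for *Ptpn6* chr6:124738710-124738959, both on the minus strand. Capitals mark matches on either strand to CCGGAA (a form of the ETS site), TGACGTCA (the cAMP response element) and GGGCGG (the Sp1 box). A GATAA motif was searched too and found in neither. Other forms of the ETS site were not searched for and are not marked.
Ptpn11: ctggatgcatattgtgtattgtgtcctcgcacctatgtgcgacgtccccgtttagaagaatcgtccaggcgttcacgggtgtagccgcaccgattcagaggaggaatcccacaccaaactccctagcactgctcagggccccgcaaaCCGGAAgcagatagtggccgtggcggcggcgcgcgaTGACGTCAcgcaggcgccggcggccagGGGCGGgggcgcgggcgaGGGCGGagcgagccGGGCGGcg
Ptpn6: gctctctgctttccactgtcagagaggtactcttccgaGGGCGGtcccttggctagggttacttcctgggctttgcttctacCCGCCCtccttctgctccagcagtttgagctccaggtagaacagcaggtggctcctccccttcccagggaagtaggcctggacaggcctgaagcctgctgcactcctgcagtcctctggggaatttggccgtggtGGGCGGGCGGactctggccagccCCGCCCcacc
In *Ptpn11* the letters CCGGAA began 103 bases and the cAMP response element 67 bases before the start. The Sp1 box occurred 3 times there, beginning 40, 22 and 8 bases before the start. In *Ptpn6* the Sp1 box occurred 5 times over both strands, with those at 33 and 29 bases overlapping by their ends. Neither the letters CCGGAA nor the cAMP response element occurred in *Ptpn6*. Over 32851 promoters of the same length, 12% held CCGGAA, 22.6% GATAA, 1.55% the cAMP response element and 32.7% the Sp1 box. The motifs were chosen with the sequences in view, and a match of letters is a description, not a binding site. Of the 11 detected genes, 8 matched a promoter entry.

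*Ptpn12* encodes PTP-PEST, a phosphatase of cytoskeletal adaptor proteins (chromosome 5). It had log2 intensities of 8.12, 8.17 and 8.58 in WT mice and 6.52, 7.65 and 8.30 in *Pik3cg-/-* mice (probe ILMN_2783403). Mouse C of the *Pik3cg-/-* group lay among the WT mice and mouse A far below, so the groups overlapped. The log2 fold change was −0.80 ± 0.40 (SE, limma adjusted p = 0.289), and the probe was detected on all 6 WT and on 4 of 6 *Pik3cg-/-* arrays. On the log2 values deposited by the authors it was −0.33.

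*Ptpn14*, a phosphatase with a FERM domain that is best known from epithelial and endothelial cells (chromosome 1), showed the opposite arrangement. WT mice were tightly grouped at 8.30, 8.30 and 8.27 and *Pik3cg-/-* mice stood at 8.35, 8.54 and 9.26 (probe ILMN_2621021). The groups did not overlap, though *Pik3cg-/-* mouse A was only just above WT. Mouse C stood farthest, and the log2 fold change was 0.43 ± 0.24 (SE, limma adjusted p = 0.341), or 0.15 without mouse C, whose arrays detected the fewest probes. *Ptpn18* (chromosome 1), a phosphatase of the PEST family first found in haematopoietic cells, had 10.69, 10.26 and 10.55 in WT mice and 10.08, 10.21 and 10.34 in *Pik3cg-/-* mice, with a log2 fold change of −0.29 ± 0.17 (SE, limma adjusted p = 0.372). *Ptpn22*, a lymphocyte phosphatase that works with the kinase Csk (chromosome 3), had 9.17, 9.19 and 9.08 in WT mice and 9.25, 8.88 and 8.94 in *Pik3cg-/-* mice, with a log2 fold change of −0.12 ± 0.16 (SE, limma adjusted p = 0.715). For both genes the groups overlapped. The log2 fold change of *Ptpn18* was −0.52 with technical array 1 and −0.06 with technical array 2 alone, and that of *Ptpn22* was −0.22 and −0.02. With 1 mouse left out, that of *Ptpn22* ran from −0.24 without *Pik3cg-/-* mouse A to −0.05 without *Pik3cg-/-* mouse B.

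In the receptor class, *Ptpre*, which encodes a phosphatase close to PTPα (chromosome 7), was detected on all 12 arrays by 2 of its 5 probes. Probe ILMN_1254630 read 13.78, 14.07 and 13.996 in WT mice and 14.23, 14.09 and 14.02 in *Pik3cg-/-* mice, and the groups overlapped. The log2 fold change was 0.17 ± 0.16 (SE, limma adjusted p = 0.590), and that of probe ILMN_2826916 was 0.08 (adjusted p = 0.867 from limma).

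The detected *Ptprc* probe (chromosome 1, ILMN_1212836) was detected on 3 of 6 WT arrays and on 0 of 6 *Pik3cg-/-* arrays. Its values were 6.68, 7.37 and 6.89 in WT mice and 6.95, 6.46 and 5.92 in *Pik3cg-/-* mice, and the groups overlapped. Since the *Pik3cg-/-* group was undetected throughout, no fold is given, and the test of the normalized values gave an adjusted p of 0.320 from limma. *Ptprcap* (chromosome 19), the CD45-associated protein of lymphocytes, had 7.06, 7.10 and 6.93 in WT mice and 7.36, 7.39 and 7.89 in *Pik3cg-/-* mice, with no overlap. Its log2 fold change was 0.52 ± 0.19 (SE, limma adjusted p = 0.166), and it was detected on 3 of 6 WT and 5 of 6 *Pik3cg-/-* arrays. This value was 0.82 with technical array 1, 0.22 with technical array 2, 0.19 on the log2 values deposited by the authors and 0.35 without *Pik3cg-/-* mouse C.

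The PRL phosphatases, like the nonreceptor class, held members on both sides of WT. *Ptp4a3*, which encodes PRL-3 (chromosome 15), had log2 intensities of 10.24, 10.50 and 10.11 in WT mice and 10.87, 11.11 and 11.48 in *Pik3cg-/-* mice (probe ILMN_2655260). Every *Pik3cg-/-* mouse lay above every WT mouse, and the probe was detected on all 12 arrays. The means were 10.29 ± 0.20 (SD, n = 3) and 11.15 ± 0.30 (SD, n = 3), a log2 fold change of 0.87 ± 0.20 (SE, limma adjusted p = 0.0628), the lowest adjusted p among the members. It was 0.0400 on the log2 values deposited by the authors and 0.0262 without *Pik3cg-/-* mouse A. Without *Pik3cg-/-* mouse C, which stood farthest from WT, the log2 fold change was 0.71 (limma adjusted p = 0.0862), and over 22 alternatives the log2 fold change ran from 0.70 to 1.01 and the adjusted p from 0.00515 to 0.234. The largest gap between the arrays of a mouse was 0.24.

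*Ptp4a2*, which encodes PRL-2 (chromosome 4), had 11.55, 11.66 and 11.86 in WT mice and 10.80, 11.14 and 11.31 in *Pik3cg-/-* mice (probe ILMN_2611331). Every *Pik3cg-/-* mouse lay below every WT mouse. The log2 fold change was −0.61 ± 0.19 (SE, limma adjusted p = 0.123), and the duplicate arrays of 1 mouse differed by up to 0.80. Its second detected probe, ILMN_2725835, had 8.86, 9.16 and 9.05 in WT mice and 8.33, 8.82 and 8.88 in *Pik3cg-/-* mice, overlapping, with a log2 fold change of −0.34 (adjusted p = 0.345 from limma), or −0.17 without *Pik3cg-/-* mouse A.

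Within a mouse, the log2 ratio of the *Ptp4a3* to the *Ptp4a2* probe was −1.30, −1.16 and −1.75 in WT mice and 0.07, −0.03 and 0.17 in *Pik3cg-/-* mice. The 3 *Pik3cg-/-* mice lay above all WT mice, at 0.07 ± 0.095 (SD, n = 3) against −1.40 ± 0.30 (SD, n = 3). Duplicate arrays of a mouse differed by up to 0.24 for the *Ptp4a3* and 0.80 for the *Ptp4a2* probe. These gaps exceed the SD between the *Pik3cg-/-* mice, so its small size says little on their likeness. The change of the mean ratio was 1.47 (exact permutation test, two-sided, p = 0.1, and 0.1 after adjustment over the 2 ratios). Every *Pik3cg-/-* mouse already lay above all WT mice for *Ptp4a3* and below them for this *Ptp4a2* probe. The ratio therefore had to separate the groups, and its permutation p was fixed in advance and adds no evidence. The change of the ratio ran from 1.23 to 1.72 over 14 alternatives, beside −1.23 to −0.59 for the ratio of *Ptpn11* to *Ptpn6*.

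**Figure D2:**
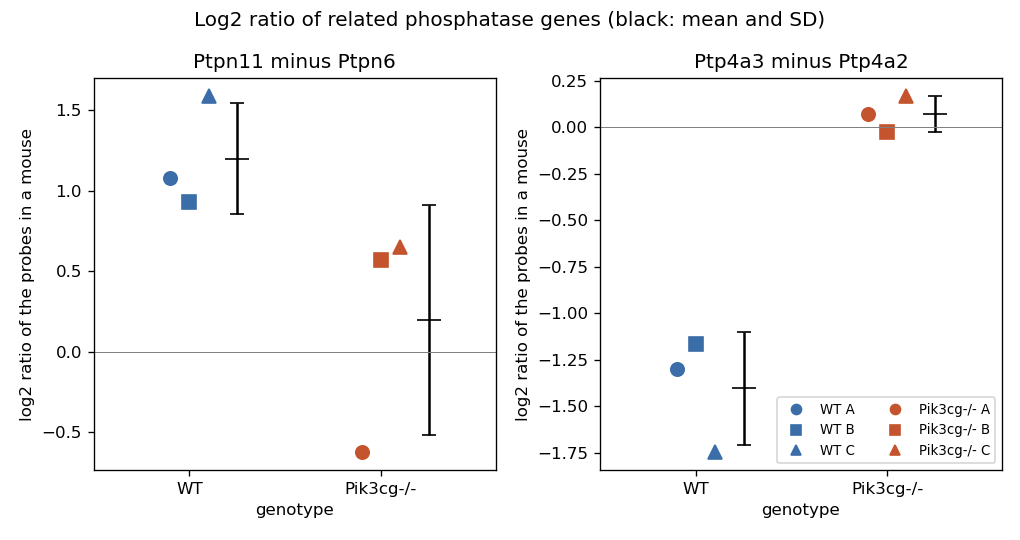
Log2 ratio of 2 probes in the same mouse (vertical axis), Ptpn11 to Ptpn6 (left) and Ptp4a3 to Ptp4a2 (right), by genotype (horizontal axis). Coloured points are mice, and black marks the mean and SD (n = 3). The mean moves from 1.2 to 0.20 on the left and from −1.40 to 0.07 on the right, with no overlap of the genotypes. On the right the lack of overlap follows from the 2 probes taken singly.

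**Figure D3:**
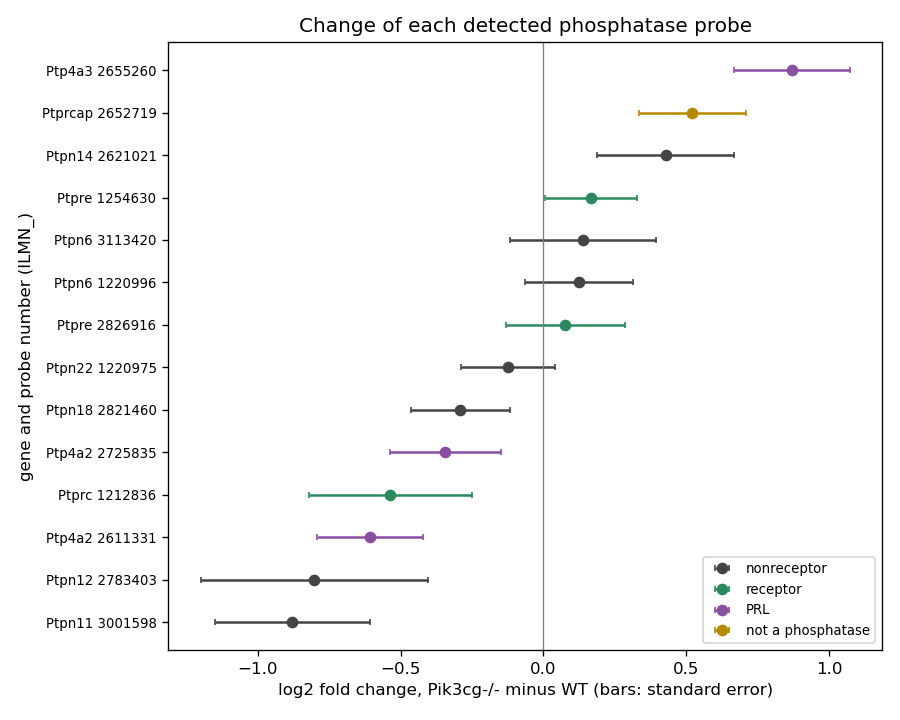
Log2 fold change of each detected member probe, Pik3cg-/- minus WT (horizontal axis), sorted by size (vertical axis, gene and probe number), with bars for the standard error from limma and colours for the class. Values run from −0.88 for Ptpn11 to 0.87 for Ptp4a3, and none passed an adjusted p of 0.05. The Ptprc probe was undetected on all Pik3cg-/- arrays, so its point and bar are not a measured fold change.

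By count, the members did not lean to one side. Taking the brightest detected probe of each gene, 6 of 11 genes (54.5%) had a log2 fold change below 0, beside 53.4% of all detected probes, and the median was −0.12 beside −0.02 for all probes. *Ptprc* was among them although it was detected in WT mice alone; without it 5 of 10 genes were below 0 and the median was −0.000258. The median was −0.21 over the 6 nonreceptor genes, and the 2 PRL genes stood at −0.61 and 0.87. Without *Ptprcap* the median of the remaining 10 genes was −0.21.

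Genes that act with the phosphatases were counted from 4 lists, with a background of 1.2% of 3822 named genes called higher, 1.28% called lower and 20.9% at an unadjusted p under 0.05; 54.1% of them had a log2 fold change below 0. Of the kinases of the Src, Syk, Tec, Jak, Abl and Fak families with Csk, Fes and their relatives, 9 of 26 listed genes were measured, 1 was called higher and 0 lower, and the median log2 fold change was −0.13. The gene called higher was *Fes*, a nonreceptor kinase of myeloid cells (limma adjusted p = 0.0349). It was undetected on all 6 WT arrays and detected on 3 *Pik3cg-/-* arrays. Its *Pik3cg-/-* mean was 1.23-fold higher with the WT level on each array taken as no less than the dimmest detected probe. That mean includes *Pik3cg-/-* arrays without detection, so 1.23 is not a firm lower bound. *Fes* passed the filter on detection only through the *Pik3cg-/-* arrays, where it was higher, so the filter favoured this call and it is no evidence on the list. It lost the call when any mouse other than *Pik3cg-/-* mouse A was left out (adjusted p 0.0679 to 0.129), and kept it in 9 of 20 alternatives in all.

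The next list held receptors with inhibitory tyrosine motifs, to which SHP-1 and SHP-2 bind, with cytokine receptors and some other receptors and related proteins. Of this mixed list 13 of 38 were measured, 0 were called by limma and 4 had an unadjusted p under 0.05. Of the 13 measured, 11 had a log2 fold change below 0, with a median of −0.31. A gene among these 11 was undetected on all *Pik3cg-/-* arrays, so the filter favoured a value below WT for it. The platelet receptors *Mpig6b* and *Treml1* stood at −1.63 and −1.38 (adjusted p = 0.128 and 0.145 from limma), or −0.97 and −0.78 without *Pik3cg-/-* mouse A. *Fcrla* of B cells, also among the 3 brightest of the list, stood at −0.26 (limma adjusted p = 0.511). A dimmer platelet gene of the list stood at −0.33, with the groups overlapping (limma adjusted p = 0.459). *Treml1* and *Fcrla* are also in the platelet and B cell marker lists, so these lists are not separate. Of the adaptors and partners, 15 of 36 were measured, with a median of 0.09. *Dok2*, a docking protein that restrains Ras, rose from 7.42, 7.71 and 7.56 in WT mice to 8.59, 8.55 and 8.76 in *Pik3cg-/-* mice (log2 fold change 1.07 ± 0.16, SE, limma adjusted p = 0.0134). *Skap2*, a Src kinase associated adaptor, fell from 11.37, 11.03 and 11.48 to 9.86, 10.34 and 10.56 (log2 fold change −1.04 ± 0.22, SE, limma adjusted p = 0.0496). Both lost the call when *Pik3cg-/-* mouse B or any 1 WT mouse was left out, with adjusted p of 0.0531 to 0.0869 for *Dok2* and 0.0950 to 0.199 for *Skap2*. Over all alternatives *Dok2* kept the call in 16 of 22 and *Skap2* in 11 of 22. Of the other phosphatases of the superfamily, dual specificity enzymes included, 18 of 61 were measured and 0 were called by limma, with a median of −0.02. An unadjusted p under 0.05 was found for 6. Some of these 6 were undetected in 1 genotype and passed the filter only through the other, where they were higher. The filter favoured them, so the count of 6 is no evidence on the list.

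Lists of blood cell markers are given beside the members as values. The median over 12 measured of 15 platelet and megakaryocyte markers, taken as each mouse's deviation from the WT mean, was −0.32 to 0.27 in WT mice and −2.63, −0.88 and −0.67 in *Pik3cg-/-* mice A, B and C. All 12 had a log2 fold change below 0, 9 had an unadjusted p under 0.05 (beside 20.9% of all named genes) and 0 were called by limma. The median log2 fold change of the list was −1.37, or −0.80 without *Pik3cg-/-* mouse A. Of the members, *Ptpn11* deviated by −1.41, −0.49 and −0.73, *Ptpn12* by −1.77, −0.64 and 0.01, and *Ptp4a2* by −0.89, −0.55 and −0.38 in the same mice. *Ptpn18* deviated by −0.42, −0.29 and −0.16. Mouse A was lowest for the platelet list and for these 4 genes, chosen after their values were seen. It was highest of the *Pik3cg-/-* mice for *Ptpn22* (0.11, −0.27 and −0.21), which also had a mean below WT. The order of the *Pik3cg-/-* mice in *Ptprc* is not used, since its probe was undetected on all of their arrays. *Ptp4a3* deviated by 0.59, 0.83 and 1.19 and *Ptprcap* by 0.33, 0.37 and 0.87, with mouse A nearest to WT and mouse C farthest. Without mouse A, the log2 fold change of *Ptpn11* was −0.61, that of *Ptp4a2* −0.47 and that of *Ptpn12* −0.32. The part of the platelet markers in these values was not tested.

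The median fold changes of the other lists were closer to 0. Red cell and reticulocyte markers (5 of 11 measured) had medians of 0.22, 0.15 and 0.21 in *Pik3cg-/-* mice A, B and C, and 1 of the 5, *Sptb*, which encodes a spectrin of the red cell skeleton, was called higher (log2 fold change 1.72, adjusted p = 0.00276 from limma). Their *Hba-a1* and *Alas2* probes lay at the upper end of the range of the arrays, between 16.04 and 16.11 in every mouse. A difference cannot show there. The median of the 5 in each *Pik3cg-/-* mouse was the deviation of *Slc4a1* alone, whose bright probe read 15.80 to 15.87 in these mice. Without *Hba-a1* and *Alas2*, the median log2 fold change of the other 3 was 0.88, beside 0.19 for all 5. The median log2 fold change was −0.10 for neutrophil markers (8 of 12 measured), −0.43 for monocyte markers (6 of 14), −0.20 for B cell markers (5 of 11), 0.14 for T cell markers (6 of 12) and 0.11 for NK cell markers (4 of 10), with 0 called by limma in any of these and 3, 1, 0, 0 and 1 genes at an unadjusted p under 0.05. The monocyte list ranged from −0.57 to 0.64 in WT mice and from −0.66 to −0.25 in *Pik3cg-/-* mice. Both *Ptpn6* probes were highest in *Pik3cg-/-* mouse A and lowest in mouse C. In these mice the medians were 0.31 and −0.20 for the neutrophil list, −0.37 and −0.25 for the monocyte list, 0.17 and −0.66 for the B cell list, 0.36 and −0.10 for the T cell list and 0.39 and −0.14 for the NK cell list. The part of these cells in the *Ptpn6* values was not tested.

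**Figure D4:**
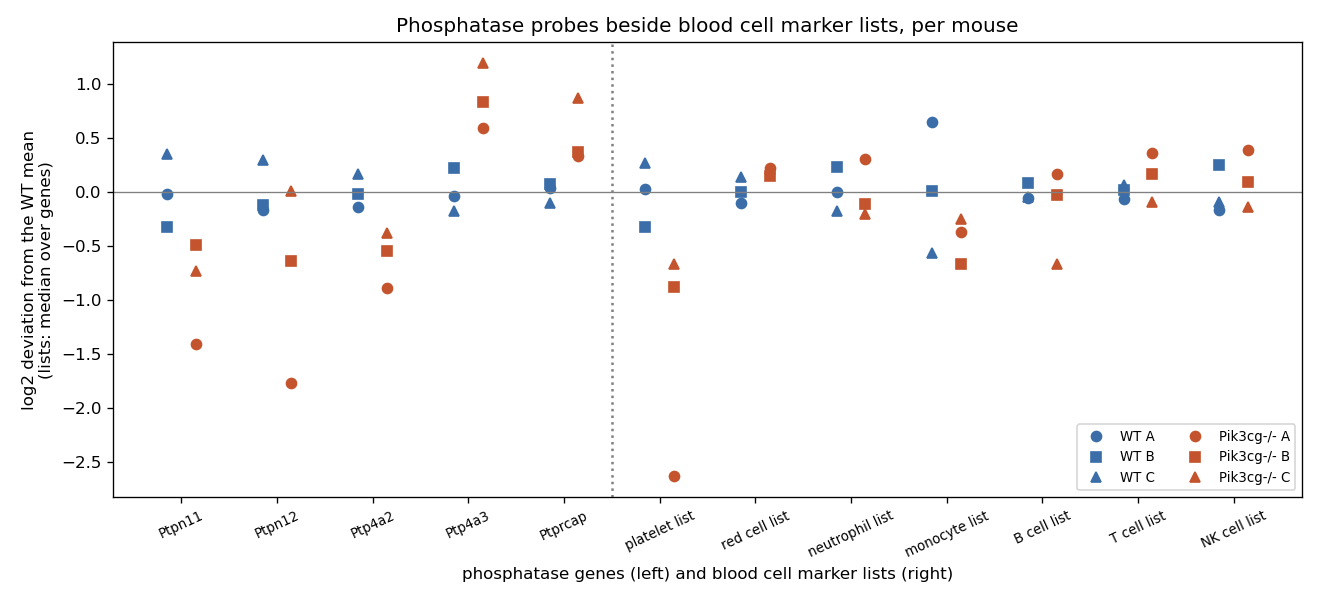
Deviation of each mouse from the WT mean in log2 units (vertical axis). Shown are 5 member genes (left) and the median of 7 blood cell marker lists (right). In the red cell list, the Pik3cg-/- points are the values of Slc4a1 alone. Each point is 1 mouse, blue for WT and orange for Pik3cg-/-; mouse A of the Pik3cg-/- group is lowest in Ptpn11, Ptpn12, Ptp4a2 and the platelet list, and nearest to WT in Ptp4a3.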

How the data were processed

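Whole blood RNA of 6 mice was hybridized to 12 Illumina MouseWG-6 v2 BeadChip arrays in technical duplicate, and mice were grouped by genotype from the labels. Per the file headers, the deposited intensity values are mean bead signals of a probe, with background already subtracted on each array and no normalization across arrays. Per the file headers, a detection p-value goes with every intensity. The log2 values deposited by the authors were, per their methods, background subtracted, variance stabilized and quantile normalized in lumi, whose version is not given in the sources used here, and they served as an alternative. Arrays have no read depth, so the number of mice limits the precision. The slide of each array is not given in the sources used here, so it could not be tested as a batch.

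Intensities were corrected with neqc in limma 3.58.1 under R 4.3.3 (offset 16, quantile normalization, log2), and the arrays of a mouse were averaged. The genotypes were compared with lmFit and eBayes over the 5498 probes whose detection p was under 0.01 on 3 or more arrays, with Benjamini-Hochberg adjustment over them all. Fold changes are on the log2 scale of intensity plus offset, which understates those of dim probes. Of 45281 probes, 34885 have 1 gene symbol in the platform annotation, 18 have several and 10378 have none. A gene of a list was represented by its brightest detected probe. Sequences and positions are from RefSeq (GRCm38.p6), and plots were made in Python 3.11.15 with matplotlib 3.10.9.

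The members, the lists, the rule for named genes and the alternatives were chosen with earlier results of these data known. Values per mouse were to be given for members called, for the 8 brightest member genes, for the 6 with the largest fold change and for those with no overlap, which took in all 11 detected genes. Of other lists, only genes called or among the 3 brightest were named. Nothing says that the mice of a group were bred or bled apart, and p-values measure only the spread between them. Letters A to C do not pair the mice. The correlation of the deviations of same-lettered mice was 0.18, −0.18 and 0.18. The limma step was tested on simulated data, where it called 60% of 100 changes of 2-fold and 97% of 100 of 4-fold. The largest member log2 fold changes, −0.88 and 0.87, are smaller than 2-fold, so changes of their size can be missed. Alternatives were other background corrections, offsets, scalings, filters and tests, single technical arrays, a block for the letter and each mouse left out in turn. Protein sequences, ontology terms and the human data of the study were not analysed here.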

Additional observations from a re-analysis of the deposited data

How the results depend on the processing

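With 3 mice a group, limits were the spread between mice and, for *Ptprc*, *Ptprcap* and *Ptpn12*, signals near background. Each probe was tested in 20 to 22 alternatives. Over these, 9 of the 11 member genes (all but *Ptpn6* and *Ptpre*) kept their direction at every detected probe. Among the 9 was *Ptprc*, whose probe passed the filter only through WT arrays. The filter favoured the direction of *Ptprc*, which is therefore no evidence. With the other filters, the random block, the analysis of variance, the trended prior or the replicate block, the log2 fold change of a probe equals the main one by construction. Those settings could not change a direction. The single member called higher was *Ptp4a3*, so that the count was 1 in place of 0, on the authors' log2 values, with no further background correction, an offset of 50, the 75th percentile of probes detected on all arrays, unaveraged arrays with a random block for the mouse, array quality weights, or a trended and robust prior. In this order, these settings called 183, 197, 198, 257, 471, 596 and 259 of all probes, each more than the 150 of the main fit. Leaving out mice gave 0 to 1 members called higher and 0 called lower, the 1 being *Ptp4a3* without *Pik3cg-/-* mouse A. Called lower was 1 member, *Ptpn11*, with the 75th percentile of all probes (chosen after seeing the data) and with the random block, and 1, *Ptp4a2*, with array weights. The cause was not tested.

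The median over member genes was −0.33 with the 75th percentile of all probes, where the median of all probes was −0.19 in place of −0.02 and 21.8% of calls were higher in place of 52.7%. It was −0.000258 for probes detected on all 12 or on at least 6 arrays and 0.025 with no filter, where fewer or more probes entered, and −0.23 to −0.05 with mice left out. The log2 fold change of *Ptpn6* probe ILMN_1220996 was −0.091 with the 75th percentile of all probes and −0.023 to 0.28 with mice left out, below 0 without *Pik3cg-/-* mouse A. That of its probe ILMN_3113420 was −0.027 and −0.073 to 0.40 in these settings, and −0.31 with technical array 1. That of *Ptpre* probe ILMN_2826916 was −0.12 and −0.11 to 0.19 in these settings, −0.078 with technical array 1 and −0.039 with array weights, and it was also below 0 without WT mouse C (−0.0053).

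Of the genes acting with the phosphatases, 2 were called higher and 1 lower. Called higher were 4 with an offset of 50, 6 with the 75th percentile of detected probes or a trended prior, 7 with the random block and 8 with array weights. It was 1 with either stricter filter, no filter or technical array 1, and 0 with the methods' analysis of variance. Called lower were 4 with the 75th percentile of all probes, 5 with the random block and 2 with array weights, and 0 with cyclic loess, either stricter filter, no filter, technical array 1, the analysis of variance or the replicate block. With mice left out, 0 to 4 were called higher and 0 to 2 lower.

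Over all probes 150 were called, against 47 with detection on all 12 arrays, 86 with no filter, 83 with technical array 1, 471 with the random block, 596 with array weights, 4 with the analysis of variance, 307 with the 75th percentile of all probes and 257 with that of detected probes, 259 with a trended prior, and 40 to 344 with mice left out. With the letter as a replicate block, 0 members and 111 of all probes were called; the mice share only a letter.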
